A study of Mus musculus with 12 samples.

Results

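Dimethylation of lysine 9 of histone H3 (H3K9me2) in brown adipose tissue (BAT) was compared with that in subcutaneous white adipose tissue (WAT), with the regions that both tissues shared as reference. The data were lists of peaks from chromatin immunoprecipitation and sequencing (ChIP-seq). Regions were chosen as follows. Peaks of the 4 H3K9me2 lists with a score of 50 or more on chromosomes 1 to 19 were merged where they overlapped by at least 1 bp, which gave 59677 merged regions. A region was brown-specific when both BAT lists and neither WAT list had a peak in it, white-specific when both WAT lists and neither BAT list had one, and shared when all 4 lists had one. There were 3772 brown-specific regions (6.32% of all merged regions), 892 white-specific regions (1.49%) and 7666 shared regions (12.8%). The other regions had a peak in another combination of lists.

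The 4 lists came from 4 of the 12 libraries of the study. All mice were wild-type C57BL/6J, and from 6 weeks of age they were given a standard chow diet (SCD, the control) or a high-fat diet (HFD). The labels give 12 weeks of feeding, whereas the plot of body weight in the paper has an age axis that ends at the same number. Each tissue, BAT or subcutaneous WAT, had 1 H3K9me2 library per diet, so the groups were SCD BAT, HFD BAT, SCD WAT and HFD WAT with no replicates, and the diets stand in for replicates in the rule above although they differ in treatment. How many animals went into a library is not given in the sources used here. Chromatin was taken from whole tissue after fixing with 1% formaldehyde for 8 min, so that a peak in adipocytes and a peak in other cells of the depot cannot be told apart. Peaks measure no expression, so the tissue labels could not be checked against the expression of marker genes. The methods pair the name H3K9me2 with an antibody described as being against trimethylated lysine 9 and the reverse for H3K9me3, and the marks are named here as the libraries are labelled.

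H3K9me2 is placed mainly by the methyltransferases G9a and GLP, is bound by heterochromatin proteins such as HP1 and is known for its presence over silent genes and broad repressed domains. Brown adipocytes burn fat for heat through the uncoupling protein UCP1, while white adipocytes store fat. Both types come from different embryonic precursors and keep different patterning genes in use, which is why repressive marks at Hox, Zic and Tbx genes are of interest in a comparison of depots.

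At score 50 or more the autosomal lists held 23626 peaks in SCD BAT, 42401 in HFD BAT, 20904 in SCD WAT and 20790 in HFD WAT. The HFD BAT list stood apart by its length, and 21971 merged regions (36.8%) had a peak in that list alone. The score carries no stated unit. Here it is taken to be minus log10 of p, multiplied by 10, so that the lowest score used corresponds to p of 1e-05, and it is not a level of methylation. Median scores were 87.4 in SCD BAT, 76.4 in HFD BAT, 90.8 in SCD WAT and 80.5 in HFD WAT. The number of reads per library is not known, so a region without a peak in a list is not shown to lack the mark in that tissue. With 1 library per diet and tissue no test was made between tissues, and the exact (Clopper-Pearson) binomial 95% intervals cover counting error only.

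Reference sequences of 200 bases are given as examples from promoter regions of the classes. Each stretch lies inside the named region and outside every annotated exon, is printed 5′ to 3′ on the strand of the gene from the mm9 assembly, and has its CpG dinucleotides in capitals because CpG content differed between the classes. Ucp1, Srebf1 and Hoxa11 are examples of brown-specific regions, Etfa and Acaca of white-specific regions and Map3k5 of shared regions.
Ucp1 (brown-specific, chr8:85814047-85814246, plus strand): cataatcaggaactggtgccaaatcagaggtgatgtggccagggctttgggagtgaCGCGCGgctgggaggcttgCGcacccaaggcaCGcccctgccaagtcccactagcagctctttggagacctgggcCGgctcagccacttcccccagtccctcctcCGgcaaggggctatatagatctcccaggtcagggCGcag
Srebf1 (brown-specific, chr11:60014543-60014742, minus strand): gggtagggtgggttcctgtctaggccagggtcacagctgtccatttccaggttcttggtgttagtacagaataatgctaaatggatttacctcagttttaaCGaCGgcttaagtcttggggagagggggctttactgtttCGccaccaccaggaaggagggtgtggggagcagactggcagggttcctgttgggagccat
Hoxa11 (brown-specific, chr6:52194107-52194306, minus strand): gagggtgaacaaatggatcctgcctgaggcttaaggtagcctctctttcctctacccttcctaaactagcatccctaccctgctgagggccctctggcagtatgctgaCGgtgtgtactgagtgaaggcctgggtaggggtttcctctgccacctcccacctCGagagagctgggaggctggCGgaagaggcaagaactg
Etfa (white-specific, chr9:55359616-55359815, minus strand): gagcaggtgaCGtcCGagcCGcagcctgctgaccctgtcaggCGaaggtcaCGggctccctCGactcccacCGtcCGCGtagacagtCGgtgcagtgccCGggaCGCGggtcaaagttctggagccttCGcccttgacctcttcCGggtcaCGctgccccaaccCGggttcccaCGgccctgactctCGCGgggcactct
Acaca (white-specific, chr11:83993113-83993312, plus strand): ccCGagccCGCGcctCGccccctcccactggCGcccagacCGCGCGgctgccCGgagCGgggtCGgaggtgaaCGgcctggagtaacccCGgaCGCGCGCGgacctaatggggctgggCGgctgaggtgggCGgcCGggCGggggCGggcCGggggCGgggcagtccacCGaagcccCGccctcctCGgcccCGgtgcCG
Map3k5 (shared, chr10:19654078-19654277, plus strand): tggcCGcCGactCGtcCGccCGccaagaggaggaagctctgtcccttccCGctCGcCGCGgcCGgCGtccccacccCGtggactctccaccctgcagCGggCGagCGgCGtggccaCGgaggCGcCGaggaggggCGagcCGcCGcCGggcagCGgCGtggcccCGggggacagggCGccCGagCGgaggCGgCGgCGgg
The 3 brown-specific stretches held 8 CpG dinucleotides at Ucp1, 3 at Srebf1 and 3 at Hoxa11. The white-specific ones held 20 at Etfa and 29 at Acaca, and the shared one at Map3k5 held 32. All but the Hoxa11 stretch end next to a start site, and that one lies 1488 bp downstream of one. These are single examples from promoters that need not be typical of their classes, and the values over all regions follow.

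**Figure D1:**
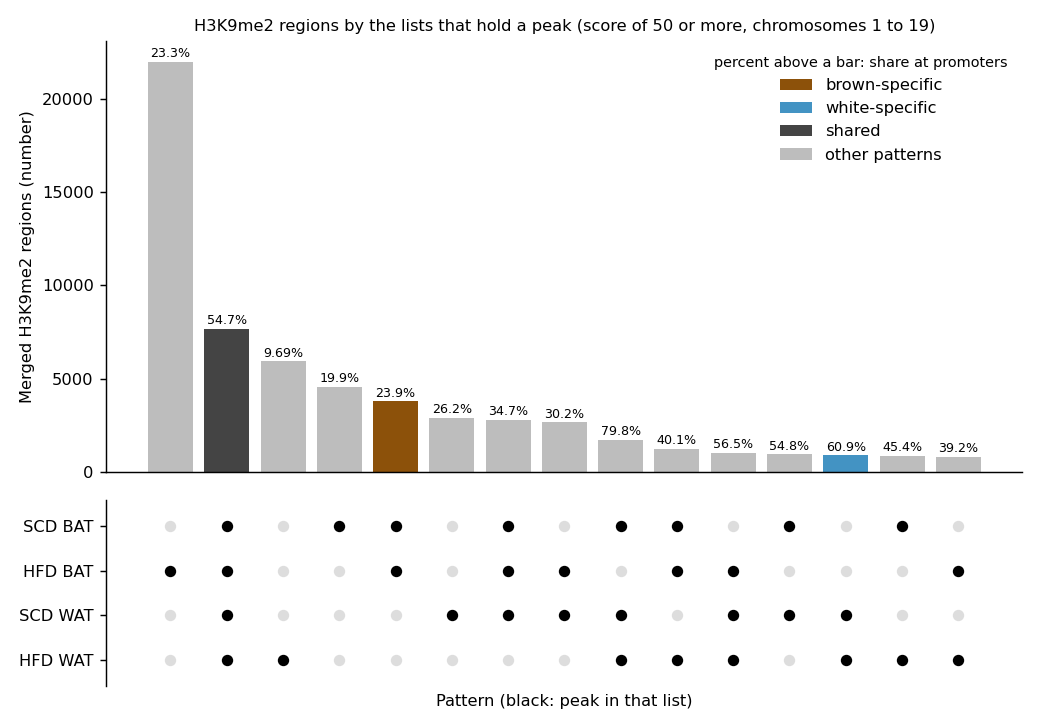
The bars give the number of merged H3K9me2 regions for each of the 15 combinations of lists, the dots below mark the lists with a peak, and the percentage above each bar is its share at promoters. The combination of HFD BAT alone is the tallest with 21971 regions, and the 892 white-specific regions lie at promoters more often (60.9%) than the 3772 brown-specific regions (23.9%).

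White-specific regions lay mostly at promoters and brown-specific regions mostly away from them. Any base within 3 kb of an annotated start site of a protein-coding gene was taken as promoter. Of white-specific regions 60.9% (95% interval 57.6 to 64.1) touched a promoter, of brown-specific regions 23.9% (22.6 to 25.3) and of shared regions 54.7% (53.6 to 55.8), against 30.9% of all merged regions. A start site itself was covered by 52.9% of white-specific, 14.1% of brown-specific and 48.9% of shared regions. Of brown-specific regions 42.8% were intergenic, 18.2% intronic and 15.1% touched an exon outside promoters. The same shares were 26.5%, 9.30% and 3.36% among white-specific regions. Of all merged regions 39.5% were intergenic, 18.0% intronic and 11.7% exonic. Brown-specific regions thus lay at promoters less often and in exons more often than the merged regions as a whole, and white-specific regions were gathered at promoters.

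Within each diet WAT was still above BAT, with a much smaller gap, and regions of WAT alone no longer lay mostly at promoters. The regions merged over all 4 lists were split for this by their peaks in the lists of 1 diet. Under SCD 36.0% (34.9 to 37.1) of those with a peak in WAT alone lay at promoters, against 25.9% (25.0 to 26.7) of those with a peak in BAT alone and 53.7% (52.9 to 54.6) of those with a peak in both tissues. Under HFD the values were 30.6% (29.6 to 31.5) for WAT alone, 25.0% (24.5 to 25.4) for BAT alone and 52.0% (51.1 to 53.0) for both. The order of white-specific and shared regions was thus turned within each diet. The white-specific value depended on both WAT lists. Without the HFD WAT list it fell to 34.4% of 3781 regions, below the 49.4% of shared regions and above the 27.9% of brown-specific ones. Without the SCD WAT list the order of the tissues turned as well. Then regions with a peak in HFD WAT and in neither BAT list numbered 6846, of which 16.5% lay at promoters, against 28.6% of the 6560 regions of the brown side. Without the long HFD BAT list the white-specific value was 58.4% of 1926 regions and the brown-specific one 21.7% of 8353 regions. HFD BAT lacked promoter peaks that the other lists had, since 79.8% of the 1701 regions missing from that list alone lay at promoters. The corresponding shares were 56.5% for the 1027 regions missing from SCD BAT alone, 40.1% for the 1248 missing from SCD WAT alone and 34.7% for the 2781 missing from HFD WAT alone. The part of this in the white-specific share was not tested beyond leaving out the list.

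**Figure D2:**
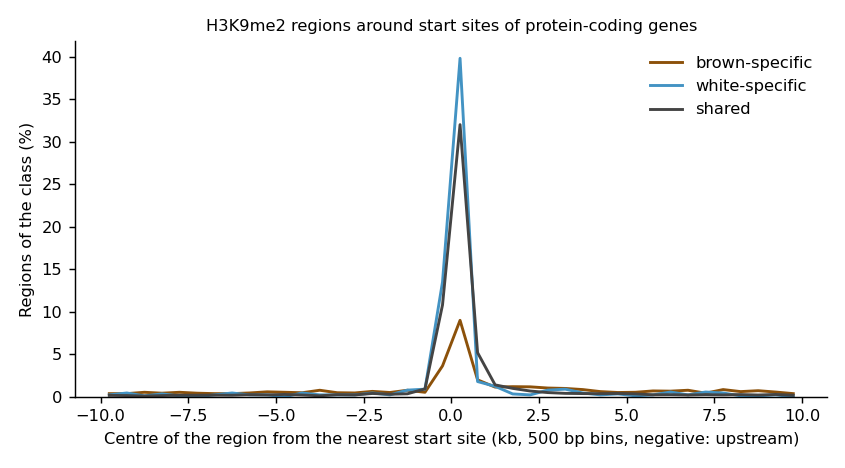
The lines give the percentage of regions of each class whose centre falls in a 500 bp bin at that distance (kb) from the nearest start site, with negative distances upstream. All classes peak in the first bin downstream of the start site, at 39.8% of white-specific, 32.0% of shared and 8.99% of brown-specific regions.

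Of regions at promoters, 472 of 543 white-specific, 3745 of 4194 shared and 532 of 902 brown-specific ones covered a start site. The centre of 355 white-specific regions (39.8%) was in the first 500 bp downstream of a start site and that of 120 (13.5%) in the first 500 bp upstream. For brown-specific regions the same bins held 339 (8.99%) and 137 (3.63%). Outside promoters the median distance to a start site was 34.6 kb for brown-specific, 33.9 kb for white-specific and 62.7 kb for shared regions, so the tissue-specific classes differed little in this respect. More than 50 kb from any start site lay 31.7% of brown-specific, 16.0% of white-specific and 24.9% of shared regions.

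Shared regions were the widest. Their median width was 1361 bp (1349 to 1375), against 973 bp (960 to 986) for brown-specific and 802 bp (788 to 817) for white-specific regions, and 898 bp for all merged regions. Widths of 2 kb or more were reached by 15.7% of shared, 6.57% of brown-specific and 0.561% of white-specific regions, the last being 5 regions. Single peaks differed in width between the lists too, with medians of 969 bp in SCD BAT, 929 bp in HFD BAT, 888 bp in SCD WAT and 658 bp in HFD WAT, and a merged region grows with the number of lists that enter it. The part of either in the widths of the classes was not tested. Without either BAT list in turn the order of brown-specific and white-specific widths turned, with 749 against 868 bp without HFD BAT and 882 against 900 bp without SCD BAT.

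White-specific regions were rich in CpG, and brown-specific regions were poor in it beside the other classes but not beside the genome. Brown-specific regions held a median of 2.21 CpG per 100 bp, against 6.69 in white-specific, 5.58 in shared and 2.41 in all merged regions. Windows spaced along the genome held 0.847 CpG per 100 bp and had a GC content of 41.9%. The ratio of observed to expected CpG in the reference sequence had a median of 0.706 in white-specific, 0.612 in shared and 0.295 in brown-specific regions, against 0.328 in all merged regions. Median GC content was 62.3%, 60.9%, 54.9% and 55.7% in the same order. Regions with at least 55% GC and a ratio of at least 0.65, which are called CpG-rich here, made up 55.4% of white-specific, 43.7% of shared and 5.75% of brown-specific regions, against 15.4% of all merged regions. CpG islands are known to lie at the promoters of widely used genes and developmental regulators. The gap was also present within each kind of place. At promoters 81.8% of white-specific, 71.8% of shared and 20.3% of brown-specific regions were CpG-rich, and elsewhere 14.3%, 9.79% and 1.18% were. Within the diets, regions with a peak in WAT alone were CpG-rich in 19.8% of cases under SCD and 27.4% under HFD, and those with a peak in BAT alone in 12.7% and 3.46%. The medians were closer. The CpG ratio was 0.402 for WAT alone and 0.380 for BAT alone under SCD, and 0.330 and 0.264 under HFD. Median GC content was 57.1% and 55.5% under SCD, and under HFD the order turned, with 48.5% for WAT alone, which was below the value for BAT alone.

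**Figure D3:**
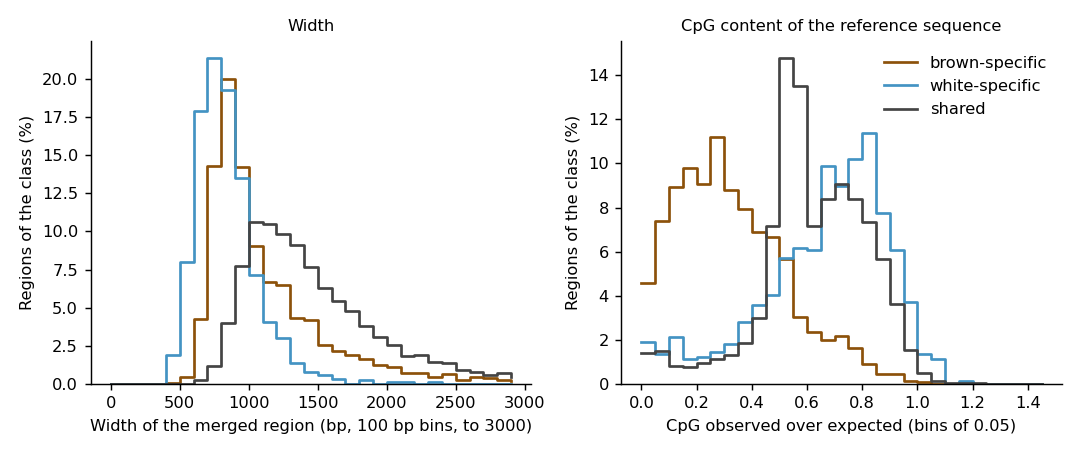
Left, the percentage of regions of each class by width (bp, 100 bp bins, shown to 3000 bp), and right, by observed over expected CpG (bins of 0.05). Shared regions reach furthest to the right in width (median 1361 bp), and the CpG ratio of brown-specific regions (median 0.295) lies to the left of that of white-specific regions (median 0.706).

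Short motifs differed between the classes, and not all in the order of the CpG content. The GC box GGGCGG, the core of the site bound by Sp1 and related factors, was found on either strand in the central 300 bases of 56.5% of white-specific, 55.6% of shared and 18.1% of brown-specific regions. It was in 25.6% of all merged regions and in 2.89% of windows of 300 bases spaced along the genome every 10 kb. The ETS core CGGAAG was in 32.1% of shared, 22.8% of white-specific and 14.4% of brown-specific regions, against 14.7% of all merged regions. The E-box CACGTG was in 7.87% of brown-specific, 7.40% of white-specific and 5.18% of shared regions, and the CRE core TGACGT in 4.22%, 4.93% and 2.92%, so that shared regions had the lowest share of both. CCAAT was in 26.6% of brown-specific and 18.4% of white-specific regions, under the 40.2% of the genome windows, and AGGTCA, a half-site of nuclear receptors such as PPARG, was in 14.6% and 7.51%, against 14.5% of all merged regions. GGGCGG can overlap CGGAAG by its last 3 letters, each motif was counted on its own, and a match does not show that a factor binds.

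The scores of the members lay close to the threshold that chose them. The lower of the 2 scores of the tissue had a median of 63.0 in brown-specific and 64.0 in white-specific regions, and it was under 55 in 928 (24.6%) and 199 (22.3%) of them. The list of SCD WAT was deposited down to a score of 30, so it could be read below the threshold. In 1325 of the brown-specific regions (35.1%) it held a weaker peak with a score under 50, of median 39.0 and at most 49.99. The 2447 brown-specific regions without such a peak lay at promoters in 19.6% of cases, and the 1325 with one in 31.8%. The other 3 lists give no values below 50, so that the white-specific regions could not be read in this way. Among the 856 brown-specific regions whose lower score was 80 or more, 23.1% lay at promoters and 5.26% were CpG-rich. Among the 219 such white-specific regions 71.7% lay at promoters and 66.2% were CpG-rich, so the gap between the classes was wider among the stronger regions.

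H3K9me3, the trimethyl form of the same residue, was mapped in the same tissues and was not used to choose the regions. White-specific H3K9me2 regions overlapped H3K9me3 peaks of BAT more often than those of WAT. H3K9me3 peaks of SCD BAT were present at 71.6% (68.6 to 74.6) and of HFD BAT at 85.0% (82.5 to 87.3) of the white-specific regions, and those of SCD WAT at 7.06% (5.47 to 8.95) and of HFD WAT at 43.6% (40.3 to 46.9). The lists themselves differed in length, with 25126 H3K9me3 peaks in SCD BAT, 50303 in HFD BAT, 7531 in SCD WAT and 27682 in HFD WAT. Over all merged regions the shares were 36.3%, 52.9%, 9.25% and 33.4%, so the share of white-specific regions was above that of all regions in both BAT lists and in HFD WAT and below it in SCD WAT. SCD BAT and HFD WAT, which had H3K9me3 lists of like length, gave 71.6% and 43.6%.

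In each single H3K9me3 list brown-specific regions had shares within a few points of the merged regions as a whole, but fewer lacked H3K9me3 in every list. The brown-specific shares were 34.8% (33.3 to 36.4) in SCD BAT, 55.9% (54.3 to 57.5) in HFD BAT, 10.8% (9.84 to 11.9) in SCD WAT and 33.3% (31.8 to 34.8) in HFD WAT. All merged regions had 36.3%, 52.9%, 9.25% and 33.4% in the same order. The intervals of HFD BAT and SCD WAT lay above those values. No H3K9me3 list had a peak at 1037 brown-specific regions (27.5%), at 63 white-specific regions (7.06%) and at 22015 of all merged regions (36.9%). Shared regions had H3K9me3 almost without exception in BAT, with 98.4% in SCD BAT and 99.7% in HFD BAT, and in 22.8% and 83.1% of cases in the SCD and HFD lists of WAT. The difference between the tissue-specific classes was also seen at promoters alone, where SCD BAT H3K9me3 was at 87.5% of white-specific and 47.3% of brown-specific regions, and elsewhere, where it was at 47.0% and 30.9%. BAT H3K9me3 in at least 1 of both lists was at 89.3% of white-specific and 60.7% of brown-specific regions. Without the HFD WAT list of H3K9me2 that order turned to 55.3% against 70.2%, and without the SCD WAT list to 58.0% against 74.5%.

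**Figure D4:**
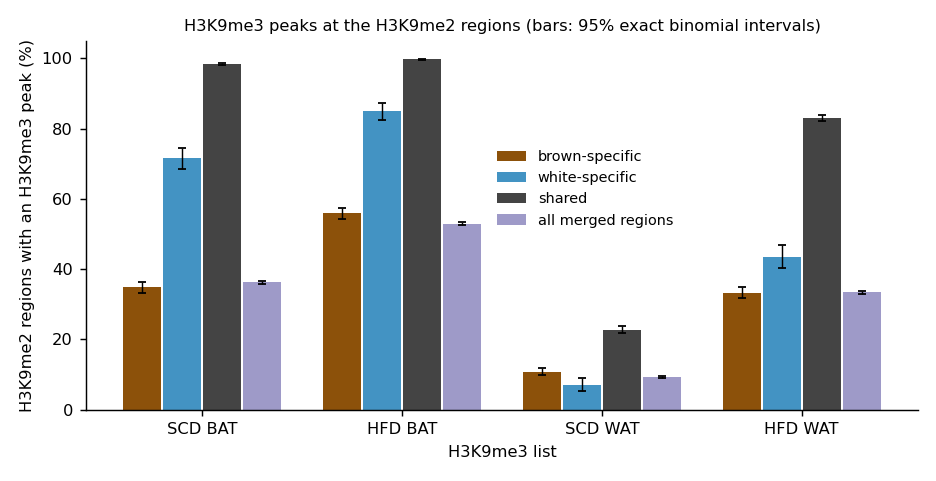
The bars give the percentage of H3K9me2 regions of each class, and of all merged regions, that overlap an H3K9me3 peak of each list, with exact binomial 95% intervals. White-specific regions reach 71.6% and 85.0% in the lists of BAT but 7.06% and 43.6% in those of WAT, and shared regions exceed 98% in both lists of BAT.

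Of 21418 autosomal protein-coding genes, 946 (4.42%) had a brown-specific region at the promoter, 615 (2.87%) a white-specific one and 4483 (20.9%) a shared one. The first and second group had 29 genes in common, which is 3.07% of the former and 4.72% of the latter. A promoter with a tissue-specific region often held other H3K9me2 regions as well. The brown-specific region was the only one at 363 promoters (38.4% of the 946), and the white-specific region the only one at 366 (59.5% of the 615). With peaks called per promoter and not per merged region, 649 genes were brown-specific and 388 white-specific. The order of these counts turned under some other settings, and the reason was not tested. With the 20790 highest-scoring peaks of each list 483 genes were brown-specific and 1069 white-specific, from 1765 and 1533 regions. With a score of 80 or more in every list there were 480 and 695 such genes, and with the lists as deposited 513 and 900. With only absence judged on the lists as deposited there were 513 and 615.

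**Figure D5:**
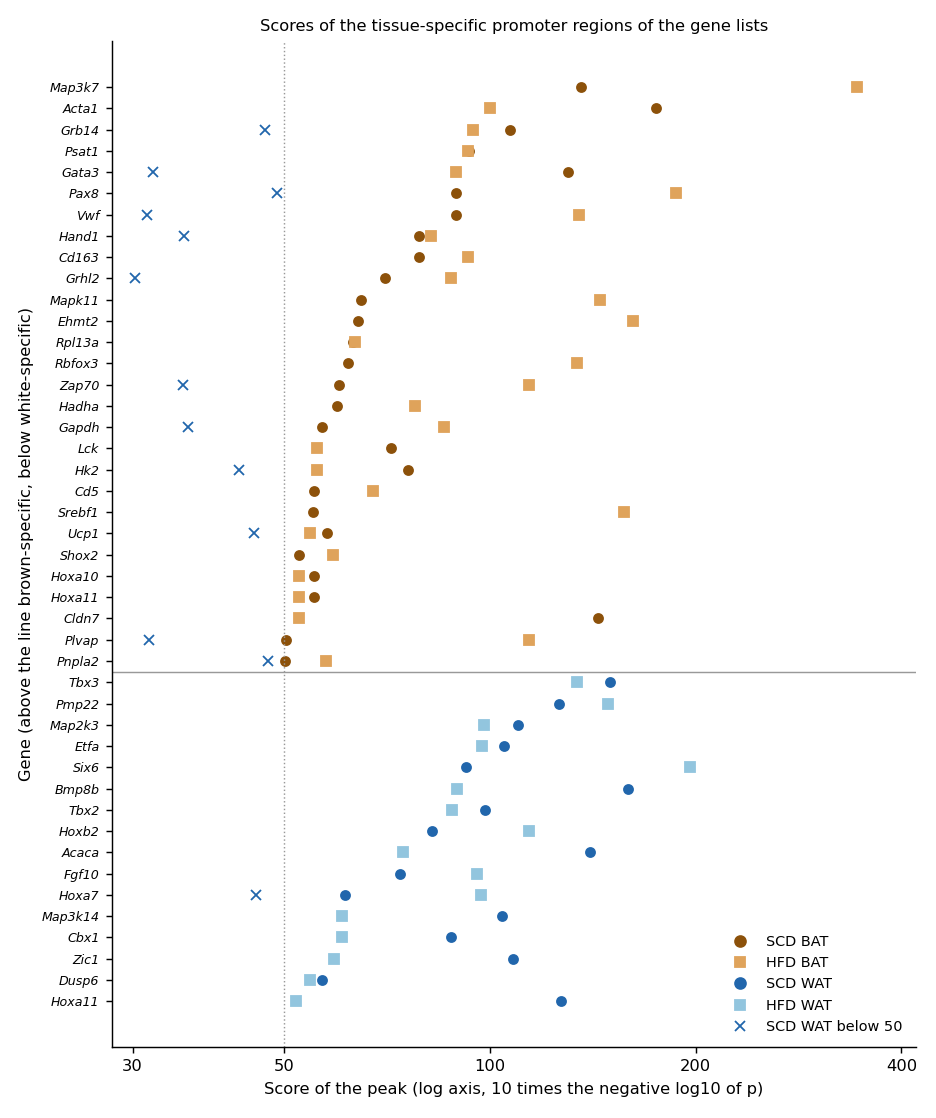
Points give the score (log axis) of the peaks in the tissue-specific promoter regions of members of the gene lists, at most 4 per list and class and with some left out, with crosses for SCD WAT peaks below 50. Brown-specific genes above the line have points of both BAT lists only, from Map3k7 (136 and 344) to Pnpla2 (50.1 and 57.5), and the white-specific genes below it have points of both WAT lists only.

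Genes of thermogenesis had tissue-specific regions in shares near those of all genes, on 1 and 2 members. Of 39 members found among the annotated genes 1 (2.56%) had a brown-specific region, 2 (5.13%) had a white-specific one and 13 (33.3%) a shared one, beside 4.42%, 2.87% and 20.9% of all genes. Ucp1, the uncoupling protein that defines brown adipocytes, had its brown-specific region at chr8:85813846-85814718 over the start site, with scores of 57.8 in SCD BAT and 54.6 in HFD BAT. HFD WAT had no peak there and SCD WAT had a weaker one with a score of 45.2. Both BAT scores were thus just above the threshold and the WAT score just below it, and with absence judged on the lists as deposited Ucp1 was not brown-specific. H3K9me3 peaks were at the Ucp1 promoter in HFD BAT (129) and HFD WAT (59.5) and in neither SCD list. Bmp8b, a secreted factor that raises the response of brown fat, was white-specific over its start site at chr4:122795720-122796647, with 159 in SCD WAT and 89.5 in HFD WAT. Zic1, a patterning factor used as a marker of classical brown fat, had a white-specific region at chr9:91256689-91257531, with 108 in SCD WAT and 59.2 in HFD WAT. It was 361 bp downstream of a Zic1 start site that lies inside the gene. The same region lay over a start site of Zic4, so it cannot be assigned to Zic1 alone. The Zic1 promoter also held a shared region, and the highest scores there were 78.8 in SCD BAT, 107 in HFD BAT, 350 in SCD WAT and 246 in HFD WAT. The WAT scores at Zic1 were above both BAT scores, although scores are not scaled between lists. Lhx8, another marker of classical brown fat, had a shared region with 95.1, 88.7, 148 and 153 in the same order of lists. At Prdm16, a regulator of brown fat fate, the values were 90.0, 118, 194 and 342.

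White adipocyte and adipogenesis genes had 3 brown-specific (7.69%), 1 white-specific (2.56%) and 10 shared (25.6%) members of 39, where 4.42%, 2.87% and 20.9% of all genes were in these classes. Psat1, an enzyme of serine synthesis, was brown-specific over its start site with 93.2 in SCD BAT and 92.9 in HFD BAT. Srebf1, a transcription factor of lipid synthesis, had a brown-specific region of 2196 bp at chr11:60013178-60015373 with 55.1 in SCD BAT and 157 in HFD BAT. The promoter windows of its several start sites held 7 other regions. Pnpla2, the lipase of the first step of fat breakdown, had 50.1 in SCD BAT and 57.5 in HFD BAT and a weaker SCD WAT peak of 47.4, so that this call rested on differences of a few score units. The Pnpla2 region lay 2096 bp downstream of a start site. Fgf10, a growth factor of fat precursors, was white-specific with 73.8 in SCD WAT and 95.8 in HFD WAT. The other genes of the adipocyte had no tissue-specific region. Lep, the gene of the hormone leptin, had a promoter peak in SCD WAT alone (119). Pparg, the master regulator of adipogenesis, had one in SCD WAT alone as well (120). Adipoq, the gene of adiponectin, had a promoter peak in none of the 8 lists. Of 13 beige adipocyte markers 1 (7.69%) was brown-specific, beside 4.42% of all genes, and none was white-specific. This was Shox2, with 52.6 in SCD BAT and 58.9 in HFD BAT.

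Patterning genes were covered more than most. Of 39 Hox genes, which set position along the body axis, 2 (5.13%) had a brown-specific, 3 (7.69%) a white-specific and 12 (30.8%) a shared region. The shares of all genes were 4.42%, 2.87% and 20.9%. A region of some kind was at 37 Hox genes (94.9%), beside 63.6% of all genes. Hoxa11 had both kinds of tissue-specific region within its promoter. The brown-specific one at chr6:52193517-52194306, downstream of the start site and also within 3 kb of Hoxa10, scored 55.2 in SCD BAT and 52.6 in HFD BAT. The white-specific one at chr6:52194943-52195703 lay 91 bp downstream of a start site and scored 127 in SCD WAT and 52.1 in HFD WAT. The first had a CpG ratio of 0.318 and the second one of 0.956, which is the difference between the classes seen again at a single gene. Hoxb2 (82.3 in SCD WAT and 114 in HFD WAT) and Hoxa7 (61.4 and 97.0) were also white-specific. Of 74 other patterning factors 8 (10.8%) were brown-specific, 7 (9.46%) white-specific and 52 (70.3%) shared, beside 4.42%, 2.87% and 20.9% of all genes. Gata3 (130 in SCD BAT and 89.3 in HFD BAT), Pax8 (89.3 and 187) and Hand1 (78.8 and 81.9) were among the brown-specific ones. SCD WAT had weaker peaks in these regions, of 32.1 at Gata3, 48.8 at Pax8 and 35.7 at Hand1. Tbx3 (150 in SCD WAT and 134 in HFD WAT), Six6 (92.1 and 196), Tbx2 (98.4 and 88.0) and Zic1 led the white-specific ones. The Tbx2 region lay 1994 bp upstream of a start site. Tbx2 and Tbx3 are related T-box repressors that act in limb and mammary development.

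Other genes that differ between depots, Tbx15, Tcf21, Hoxc8, Hoxc9 and Hoxc10, had no tissue-specific region. Tbx15 had promoter peaks of 96.9 in SCD BAT, 69.7 in HFD BAT and 90.7 in HFD WAT and, in SCD WAT, only a weaker one of 34.3. Tcf21, a white fat precursor marker, had 100, 67.2, 61.9 and 58.3 in SCD BAT, HFD BAT, SCD WAT and HFD WAT. Hoxc8 had 76.8 in SCD BAT, 94.5 in SCD WAT and 111 in HFD WAT and none in HFD BAT. Hoxc10 had a peak in HFD BAT alone (94.2), and Hoxc9 had none in the 4 lists.

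Genes of metabolism and signaling differed between the depots at a few promoters. Of 35 genes of fatty acid oxidation and lipid handling 2 (5.71%) were brown-specific and 2 (5.71%) white-specific, and 10 (28.6%) were shared. These shares are set against 4.42%, 2.87% and 20.9% of all genes, here and for the list of insulin and glucose. Acaca, the acetyl-CoA carboxylase that commits carbon to fat synthesis, was white-specific at chr11:83992791-83993928 with 140 in SCD WAT and 74.5 in HFD WAT. Etfa, a carrier of electrons from fatty acid oxidation, was white-specific with 105 and 97.5. Hadha, an enzyme of mitochondrial fatty acid oxidation, was brown-specific with 59.8 in SCD BAT and 77.8 in HFD BAT. Its region lay 2948 bp downstream of a start site. Of 29 genes of insulin and glucose, Grb14, an adaptor that inhibits the insulin receptor, was brown-specific (107 in SCD BAT and 94.3 in HFD BAT), as was the hexokinase Hk2 (75.9 and 55.8). None of that list was white-specific, and 14 (48.3%) were shared. Both Grb14 and Hk2 had weaker SCD WAT peaks, of 46.9 and 43.0. The Grb14 region lay 1955 bp upstream of a start site.

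MAPK signaling and the genes that the study names had 2 brown-specific (4.17%), 4 white-specific (8.33%) and 15 shared (31.2%) members of 48, against 4.42%, 2.87% and 20.9% of all genes. Map2k3, a kinase upstream of p38, was white-specific at chr11:60745216-60746017 with 110 in SCD WAT and 98.0 in HFD WAT. Map3k14, the kinase NIK of the noncanonical NF-kB pathway, had a white-specific region with 104 in SCD WAT and 60.8 in HFD WAT. Its promoter held other peaks as well, with 179 in HFD BAT. Dusp6, a phosphatase of ERK, was white-specific with 56.8 and 54.6. Map3k7, the kinase TAK1, was brown-specific with 136 in SCD BAT and 344 in HFD BAT in a region with no CpG dinucleotide in its reference sequence, and Mapk11, a p38 isoform, had 64.8 and 145. These regions lay 1241 bp (Map3k7) and 2335 bp (Mapk11) downstream of a start site. Map3k5, the kinase ASK1, was shared with 192 in SCD BAT, 144 in HFD BAT, 274 in SCD WAT and 184 in HFD WAT. Hspa1a, a heat shock protein, was shared with 288, 229, 177 and 107. Met, a receptor kinase, lacked a peak in SCD BAT only and had 88.0 in HFD BAT, 218 in SCD WAT and 105 in HFD WAT. Vegfa, the angiogenic factor, had promoter peaks in all 4 lists (66.3, 61.5, 93.8 and 127), but no merged region with all of them. Dusp2 had 165, 70.8 and 132 and none in HFD WAT, and Ppp3cc, a subunit of calcineurin, had 88.2 in SCD BAT and 170 in SCD WAT alone.

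Short lists of markers of other cells of the depots had 0 to 3 members per tissue-specific class. Nearly all of those were brown-specific, the class that is also the larger over all genes. Brown-specific shares were 10.7% for lymphocytes, 10.0% for endothelium, 6.67% for epithelium, 4.55% for neurons and Schwann cells and 4.17% for macrophages. They were 3.33% for skeletal muscle and 0% for fibroblasts and matrix. Of 28 lymphocyte genes 3 (10.7%) were brown-specific and none white-specific, beside 4.42% and 2.87% of all genes. They were Zap70 (60.1 in SCD BAT and 114 in HFD BAT), Lck (71.7 and 55.9) and Cd5 (55.3 and 67.5), which act in signaling of the T cell receptor. Of 24 macrophage genes Cd163, a scavenger receptor, was brown-specific with 78.8 and 93.0. Of 20 endothelial genes Vwf (89.3 and 135) and Plvap (50.3 and 114) were brown-specific. Of 30 skeletal muscle genes Acta1, the actin of muscle fibers, was brown-specific with 175 in SCD BAT and 100 in HFD BAT. Of 30 genes of epithelium Cldn7 (144 and 52.5) and Grhl2 (70.1 and 87.8) were. None of these 5 lists had a white-specific member. The regions of Lck (2703 bp) and Acta1 (1252 bp) lay downstream of a start site, and that of Vwf 2759 bp upstream. Weaker SCD WAT peaks lay in the regions of Zap70 (35.6), Vwf (31.5), Plvap (31.7) and Grhl2 (30.2). The regions of Lck, Cd5, Cd163, Acta1 and Cldn7 had none. Of 22 neuron and Schwann cell genes Rbfox3 was brown-specific (61.9 and 134) and Pmp22, a myelin protein, white-specific (126 in SCD WAT and 149 in HFD WAT). The Rbfox3 region lay 1079 bp downstream of a start site. Of 24 fibroblast and matrix genes none had a tissue-specific region. The share of cell types in the depots was not measured, and its part in these calls was not tested.

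Genes that write or read the mark and genes used by every cell were also among the members. Of 22 H3K9 methyltransferases, demethylases and HP1 genes 1 (4.55%) was brown-specific and 1 (4.55%) white-specific, beside 4.42% and 2.87% of all genes. Ehmt2, which encodes G9a, was brown-specific with 64.0 in SCD BAT and 162 in HFD BAT. Cbx1, which encodes HP1 beta, was white-specific with 87.8 in SCD WAT and 60.7 in HFD WAT. Of 23 housekeeping genes Gapdh (56.8 in SCD BAT and 85.6 in HFD BAT) and Rpl13a (63.0 and 63.4) were brown-specific, and 6 (26.1%) had a shared region. SCD WAT had a weaker peak of 36.2 in the Gapdh region and none in that of Rpl13a. The Gapdh region lay 2981 bp downstream of a start site. A share of 8.70% of housekeeping genes in the brown-specific class is above the 4.42% of all genes, on 2 genes.

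Gene families, described after their values were seen, are given beside the 4.42% of all genes with a brown-specific and the 2.87% with a white-specific region. Keratin and keratin-associated genes had 11 brown-specific members of 97 (11.3%) and none that was white-specific. Solute carriers had 25 of 343 (7.29%) brown-specific and 5 (1.46%) white-specific members. Collagen genes had 2 of 42 (4.76%) brown-specific and 5 (11.9%) white-specific ones, among them Col4a1 and Col4a2, the basement membrane collagens that share a promoter. Olfactory receptor genes had 10 brown-specific members of 1106 (0.904%) and no white-specific one. A shared region was at 15 of 18 Sox genes (83.3%), 29 of 39 Fox genes (74.4%), 23 of 34 protocadherins (67.6%), 4 of 12 Tbx genes (33.3%) and 51 of 362 Zfp genes (14.1%), against 20.9% of all genes, so families of transcription factors differed among themselves. Neighbouring members of a family can share 1 region, so the members are not independent.

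In both tissue-specific classes most of the 8 strongest regions lay outside promoters. The brown-specific region with the highest lower score was 4080 bp long in an intron of Kif27, a kinesin gene, at chr13:58447444-58451523, with 662 in SCD BAT and 1679 in HFD BAT. It had a CpG ratio of 0.0211 and H3K9me3 peaks in HFD BAT and in both WAT lists. The next was 2309 bp downstream of a start site of Nme7 (558 and 588), followed by intergenic regions near Gorasp2 (526 and 475) and Gnaz (382 and 849) and an intronic one of Dnahc8 (440 and 656). Of the 8 strongest brown-specific regions 1 lay at a promoter, and 4 had a weaker peak in SCD WAT. The widest brown-specific region, of 9208 bp, was intergenic and also near Gnaz, at chr10:74395037-74404244, with 208 in SCD BAT and 1458 in HFD BAT. SCD WAT had a weaker peak of 30.4 in it.

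Among the 8 strongest white-specific regions 3 lay at promoters. The highest was intergenic among noncoding genes near Gm15319 on chromosome 8 (340 in SCD WAT and 320 in HFD WAT). Ssr1, a protein of the secretory pathway, had 318 and 203 over its start site with a CpG ratio of 0.957. Cdh13, the cadherin that binds adiponectin, had 300 and 177 over its start site. Regions at Gm3485 (229 and 235), in an intron of Auts2 (205 and 202) and near Gng4 (240 and 709) were of like strength. A white-specific region of 6322 bp at chr8:126142092-126148413 lay in the cluster of 5S ribosomal RNA genes, with 342 and 173, and the widest shared region, of 17691 bp, lay in the same cluster. Such repeated genes are hard to place short reads on, and the authors removed reads with multiple positions. The 15 strongest white-specific genes by promoter region included Col4a1 and Col4a2 (307 and 170 in their common region) and Mpv17l (152 and 158). Of these 15 genes 14 had the region over a start site, whereas 3 of the 15 brown-specific ones did. The latter included Dhx32 (302 and 788, with a weaker SCD WAT peak of 38.5), Lect1 (228 and 334) and Spic (233 and 194). The list of these genes was made after their values were seen.

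The strongest shared regions had scores far above those of the tissue-specific ones. The region at Muc19, a gel-forming mucin, scored 1988 in SCD BAT, 2702 in HFD BAT, 3100 in SCD WAT and 2388 in HFD WAT. The region at Flg, a protein of the skin barrier, scored 2614, 1639, 2257 and 1666. Both genes contain long internal repeats, as is known of mucins and filaggrin. A score of exactly 3100 was held by 2 peaks of SCD BAT, 4 of SCD WAT and 3 of HFD WAT, and no shared region scored higher. It may be a ceiling of the score, so the SCD WAT value at Muc19 is not ranked against the others.

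Along the chromosomes the classes followed the merged regions with a few exceptions. Chromosome 11 held 92 white-specific regions, 10.3% of the class, and 6.28% of all merged regions, and chromosome 5 held 90 (10.1%) and 7.79%. Chromosomes 1 and 12 had fewer, with 41 (4.60%) and 25 (2.80%) white-specific regions beside 6.28% and 4.54% of all. Brown-specific regions made up between 4.82% (chromosome 19) and 7.62% (chromosome 18) of the merged regions of a chromosome. The 1 Mb window with the most brown-specific regions was on chromosome 10 from 80 to 81 Mb, where 22 of 202 merged regions were brown-specific and 6 white-specific, in a stretch dense in genes that includes Gna11, Nfic and Csnk1g2. Brown-specific regions had another of their class within 10 kb in 9.86% of cases, while 7.22% of all merged regions had a brown-specific one so near. White-specific regions had another of their class as near in 3.03% of cases, beside 1.44% of all merged regions. Inside genes, Bai2, Sipa1l3 and Sspo held 5 brown-specific regions each. Dlc1 and Ostm1 held 3 white-specific regions each and no brown-specific one.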

How the data were processed

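H3K9me2 was mapped by ChIP-seq in BAT and subcutaneous WAT, 1 library per diet. Per the methods and labels, the authors used FastQC and Trim Galore on the reads, Bowtie2 2.4.2 for alignment to mm9 and MACS2 for the peaks of each library, and discarded multiply mapped reads. How the inputs entered the calling and the MACS2 version are not given in the sources used here. The deposited score per peak has no stated unit and is taken as minus log10 of p multiplied by 10, from its lowest values of 50, or 30 in the SCD WAT lists. Scores were not rescaled here, and a common lowest score leaves differences in depth, which is unknown. Peaks called with other p-value limits or in libraries of other depth would change every class.

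Peaks scoring 50 or more on chromosomes 1 to 19 were merged where they overlapped by 1 bp, and each merged region was classed by the lists present. Start sites (67194, of 21418 genes) came from GENCODE release M1 on NCBIM37, whose chromosome lengths were checked against the peaks. A region was counted at a promoter first, then in an exon, an intron or between genes. Groups came from the labels, 4 inputs were not used, and no test between tissues was made, with 1 library per tissue and diet. The 4 H3K9me3 lists were overlapped in the same way. The members and the 17 gene lists were chosen with earlier results of these data known. The text names up to 4 members per list and class with the highest lower score, the strongest and widest regions, the densest windows and the genes the study names, with exceptions stated, and prints a part of these, some results not being reported here. Alternatives were a score of 80, the lists as deposited, absence judged on deposited lists, equal numbers of peaks, 50% cover, merging within 1 kb, each diet alone, promoters of 1 kb, 1 start site per gene and calls per gene. Leaving out each list in turn was added after the data were seen. Software was Python 3.11.15, NumPy 2.4.6, SciPy 1.17.1, matplotlib 3.10.9 and bedtools 2.31.1. The classing was tested on simulated data of 20000 regions, of which 100% fell in the class they were made for, and 0 of 59677 merged regions differed from those of bedtools.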

Additional observations from a re-analysis of the deposited data

How the results depend on the processing

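Values are given for brown-specific, white-specific and shared regions in that order, as number of regions, median width in bp, share at promoters, number of promoter genes, and share with an H3K9me3 peak of BAT and of WAT. Values within 1.5 times the count reported, or within its interval, are left out. The causes of the changes were not tested.

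With a score of 80 or more there were 1607 brown-specific and 3573 shared regions, widths of 1162, 960 and 1519, promoter shares of 27.6%, 74.1% and 48.8%, 480 brown-specific and 1872 shared genes, BAT H3K9me3 at 80.4%, 98.7% and 100% and WAT H3K9me3 at 60.1%, 60.0% and 93.5%. With the lists as deposited there were 2447 brown-specific and 1340 white-specific regions, widths of 944, 766 and 1341, 19.6% of brown-specific regions at promoters, 513 brown-specific genes, BAT H3K9me3 at 51.3% and 85.2% of the tissue-specific classes and WAT H3K9me3 at 36.0%, 42.3% and 83.4%. Absence judged on the lists as deposited gave the same brown-specific values, 2447, 944, 19.6%, 513, 51.3% and 36.0%. With 20790 peaks per list there were 1765 brown-specific and 1533 white-specific regions, widths of 1155, 834 and 1444, promoter shares of 25.8% for brown-specific and 50.1% for shared regions, 483 and 1069 tissue-specific genes, BAT H3K9me3 at 65.3% and 93.0% and WAT H3K9me3 at 47.0%, 52.3% and 88.6%. Presence by 50% cover gave widths of 1030 and 1293 for brown-specific and shared regions, promoter shares of 27.8% and 51.2%, BAT H3K9me3 at 66.1% of brown-specific regions and WAT H3K9me3 at 44.6% and 86.0% of brown-specific and shared ones. Merging within 1 kb gave widths of 999 and 1430 for the same classes.

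The SCD lists alone gave 10477, 7530 and 13098 regions, widths of 779, 743 and 1207, promoter shares of 25.9% and 35.7%, 2860, 2717 and 7206 genes, BAT H3K9me3 at 68.0% of white-specific and 97.7% of shared regions and WAT H3K9me3 at 36.7% of brown-specific and 74.4% of shared ones. The HFD lists alone gave 31568 and 9707 tissue-specific regions, widths of 896, 545 and 1101, promoter shares of 25.4%, 32.2% and 51.8%, 5750 and 3318 genes, BAT H3K9me3 at 39.7%, 70.0% and 99.1% and WAT H3K9me3 at 28.5%, 25.5% and 79.2%. Promoters of 1 kb gave shares of 17.7% for brown-specific and 51.4% for shared regions. With 1 start site per gene the shares were 14.3%, 54.9% and 48.8%, with 602 brown-specific genes. Calls per gene gave 388 white-specific genes.

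With each list left out in turn, the numbers of regions ranged over 5020 to 25975, 1926 to 6846 and 8679 to 10449, the widths over 749 to 1036, 513 to 900 and 1255 to 1304, the promoter shares over 21.7% to 28.6%, 16.5% to 73.5% and 49.4% to 59.2%, the genes over 1512 to 4498, 1263 to 2111 and 5017 to 5861, BAT H3K9me3 over 30.1% to 74.5%, 55.3% to 96.1% and 98.1% to 99.8% and WAT H3K9me3 over 22.0% to 51.5%, 13.0% to 59.1% and 79.6% to 82.9%.

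White-specific regions lay at promoters more often than brown-specific ones in 13 of 14 settings, the exception being that without SCD WAT, and more often than shared ones in 9 of 14. Brown-specific regions were more numerous in 11 of 12 settings and their genes in 11 of 15. Brown-specific regions were wider than white-specific ones in 10 of 12 and narrower than shared ones in 12 of 12. White-specific regions had H3K9me3 of BAT more often than of WAT in 12 of 12, and more often than brown-specific regions did in 10 of 12. The reported setting, in which these orders hold, is not counted here. The H3K9me3 lists were the same in every setting and were longer in BAT than in WAT within each diet. Brown-specific and shared regions also had H3K9me3 of BAT more often than of WAT in every setting. The order of BAT and WAT H3K9me3 is thus not particular to white-specific regions, and these settings do not test it against the lengths of the lists.

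No paired analysis was possible because every group has a single library, so that the groups share fewer than 2 replicate numbers, and the results come from no test. Depth per library is unknown, so the number of regions that a deeper library would add is not known.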
